A study of Mus musculus with 117 samples.

Results

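The circadian clock genes and clock output genes described here are Arntl, Clock, Per1, Per2, Per3, Cry1, Nr1d1, Dbp, Tef and Noct. They were read by every probe set of the arrays that the platform annotation gave to 1 of these symbols alone, which made 22 probe sets for 10 genes, of 36701 probe sets without the control probe sets. Of the 22 probe sets, 14 were on array design A, 7 on B and 1 on C. A scaled signal of at least 100 on at least 4 of the 39 gland samples was reached by 20 of the 22. The other 2 were the Cry1 probe sets 161225_r_at and 94421_r_at, which entered no test. Another 5 probe sets that name Noct together with other genes were left out of the member counts.

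RNA came from glands of individual female mice of a pair of immunodeficient strains, B6.CB17-Prkdc scid/SzJ (B6-scid) and NOD.CB17-Prkdc scid/J (NOD-scid). Both carry the Prkdc scid mutation, which leaves mice without mature T and B lymphocytes. NOD is the strain background on which autoimmune diabetes and gland inflammation arise when lymphocytes are present. Pancreas was taken at 6 weeks of age, submandibular gland at 9 and at 15 weeks, and lacrimal gland at 15 weeks. With both strains that gives 8 groups, of 5 mice each except for 4 NOD-scid mice in lacrimal gland. RNA of all 39 samples went onto the 3 array designs, for a total of 117 arrays. Mice are numbered within a group, and the labels do not say whether a number names the same mouse in another gland. Nor do they say that the mice of a group were handled apart, so p-values measure the spread between these samples.

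In most cells of the body, ARNTL (also called BMAL1) pairs with CLOCK, binds E-box sequences and switches on the Per and Cry genes, whose proteins return to the nucleus and repress that pair. The same pair drives Nr1d1, which encodes REV-ERB-alpha, a repressor that competes with ROR proteins at sites in the Arntl promoter, so that the Arntl transcript is high when Nr1d1 activity is low. Dbp and Tef encode transcription factors of the PAR bZIP family, which pass the rhythm on through D-box sequences, and NFIL3 opposes them at those sites. In peripheral tissues of mice the Dbp transcript is abundant at the hours when the Arntl transcript is scarce, and the reverse. Noct encodes nocturnin, a rhythmic phosphatase linked to lipid metabolism.

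The promoter stretches below are shown because the members whose signals are compared mouse by mouse differ in these clock elements. They are from RefSeq on build GRCm38.p6, in windows of 300 bases (250 before and 50 after a transcript start), and 9 of the 10 members had a window, 14 windows in all. Each is printed 5′ to 3′ on the strand of the gene, and capitals mark a match on either strand. The letters searched were E-box CACGTG, variant E-box CACGTT, D-box TTATGTAA or TTACGTAA, REV-ERB/ROR element TNGGTCA and cAMP element TGACGTCA. The build of the stretches says nothing about the arrays, whose probes are not placed on a genome here.
Dbp, chr7:45705147-45705246, plus strand: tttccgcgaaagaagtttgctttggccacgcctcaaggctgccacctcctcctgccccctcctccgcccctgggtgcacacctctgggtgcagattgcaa
Arntl, chr7:113207235-113207320, plus strand: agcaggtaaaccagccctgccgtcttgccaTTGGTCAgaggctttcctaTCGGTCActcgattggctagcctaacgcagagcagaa
Per1, chr11:69098753-69098818, plus strand: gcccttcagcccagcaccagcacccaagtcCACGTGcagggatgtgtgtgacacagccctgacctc
Per3, chr4:151044747-151044900, minus strand: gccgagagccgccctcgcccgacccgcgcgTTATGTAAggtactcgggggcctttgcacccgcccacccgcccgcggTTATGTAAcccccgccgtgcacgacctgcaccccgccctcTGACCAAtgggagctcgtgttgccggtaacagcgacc
Cry1, chr10:85185079-85185163, minus strand: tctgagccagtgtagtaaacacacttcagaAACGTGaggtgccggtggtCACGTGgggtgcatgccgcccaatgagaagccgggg
Nr1d1, chr11:98775378-98775435, minus strand: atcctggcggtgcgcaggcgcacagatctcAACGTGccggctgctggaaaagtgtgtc
Tef, chr15:81811165-81811311, plus strand: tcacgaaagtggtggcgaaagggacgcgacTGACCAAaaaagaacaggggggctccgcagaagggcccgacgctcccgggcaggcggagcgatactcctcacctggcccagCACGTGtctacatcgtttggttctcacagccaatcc

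The E-box was in windows of 3 members, Cry1, Per1 and Tef (4 of the 14 windows), against 7.15% of all 32851 promoter windows of the same length. The variant E-box was in those of Cry1 and Nr1d1 (4.68% of all windows). The D-box occurred in 1 member, Per3, with 2 matches in its window (1.06% of all windows). The REV-ERB/ROR element, searched with any base at its N, was in windows of Arntl, Per3 and Tef (11.0% of all windows). A second Arntl window held a further match, TAGGTCA at base 30 from its start, which lies outside the printed stretch. The cAMP element was in no member window (1.79% of all windows). None of the 5 motifs was in the Dbp window. A match is a run of letters, not a measured site, and no match speaks only of these windows.

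All signals below are MAS5 signals scaled so that the 2% trimmed mean of each array is 500. Differences are log2 of (scaled signal + 32), and a fold is 2 to the power of that difference, so it understates changes of dim probe sets. A probe set is called where its Benjamini-Hochberg adjusted p in limma, over all probe sets tested, is below 0.05. Between 65.3% and 77.8% of the probe sets of an array reached a signal of 100. The summed signal of 9 pancreatic acinar genes was at least 1520250 in pancreas and at most 192621 elsewhere. The lists of the other glands did not set them apart as sums. That of 6 submandibular genes was 195606 to 448590 in submandibular gland, 116687 to 203691 in pancreas, which shares the kallikreins Klk1 and Klk1b22, and 4026 to 282499 in lacrimal gland. That of 4 lacrimal genes was 203730 to 349226 in lacrimal gland, 107765 to 448658 in submandibular gland, where the means of Prol1 exceeded those of lacrimal gland at both ages, and 674 to 1996 in pancreas. Single genes of these lists, picked after their values were seen, did separate the glands: Smgc, by the brighter of its probe sets, was at least 7715 in submandibular gland and at most 965 elsewhere, and Lcn11 was 117665 to 242952 in lacrimal gland and at most 2999.97 elsewhere. B6-scid lacrimal samples 2 and 3 stood apart, with signals of the salivary gene Bpifa2 of 160308 and 268249 against 348 to 395 in the other B6-scid and 70.3 to 75.8 in the NOD-scid lacrimal samples. NOD-scid lacrimal sample 4 had Klk1, by its brighter probe set, of 3983, against 252 to 325 in the other NOD-scid lacrimal samples. The acinar sum reached 192621 in 1 NOD-scid submandibular sample of 9 weeks, where the median was 14065. The Actb 3′ to 5′ signal ratio, a measure of RNA degradation, ranged from 1.54 to 4.34 in the B6-scid submandibular glands of 9 weeks, and its means in the other groups lay between 1.68 and 2.54. In whole glands, fewer cells of a type and less RNA per cell cannot be told apart. The labels used here do not state the hour at which mice were killed, so its part in any difference below was not tested.

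Between the strains, few member probe sets passed the threshold. In pancreas 3 of 16 tested were called (Cry1 and Arntl higher, Noct 101787_f_at lower in NOD-scid), against 0.647% of all probe sets tested. In submandibular gland of 9 weeks 1 of 19 was called, Dbp, lower in NOD-scid, against 1.12% of all. At 15 weeks none of 19 was called in limma, against 0.594% of all, and 8 of the 19 had an unadjusted p under 0.05 against 6.79% of all probe sets. In lacrimal gland 1 of 18 was called, Noct 101787_f_at, lower in NOD-scid, against 1.19% of all. Another Noct probe set, 99535_at, had the other sign there (0.49) and was not called. The median size of the strain difference, without sign, was larger over the members than over all probe sets tested: 0.478 against 0.253 in pancreas, 0.466 against 0.304 and 0.486 against 0.243 in submandibular gland of 9 and 15 weeks, and 0.474 against 0.316 in lacrimal gland. The members were chosen with earlier results of these data known, and several probe sets read the same gene. These medians are therefore a description and not a test.

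Counted by ranges, the signals of the 2 strains did not overlap for 3 of 16 member probe sets in pancreas, against 3% of all tested. This held for 3 of 19 in submandibular gland of 9 weeks (2.1% of all), for 3 of 19 at 15 weeks (2.83% of all) and for 2 of 18 in lacrimal gland (7.09% of all). The strain comparisons in submandibular gland at both ages share 1 estimate of the spread, and those of 15 weeks share samples with the gland comparisons given further on. The plot of strain differences shows each tested member in each gland.

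**Figure D1:**
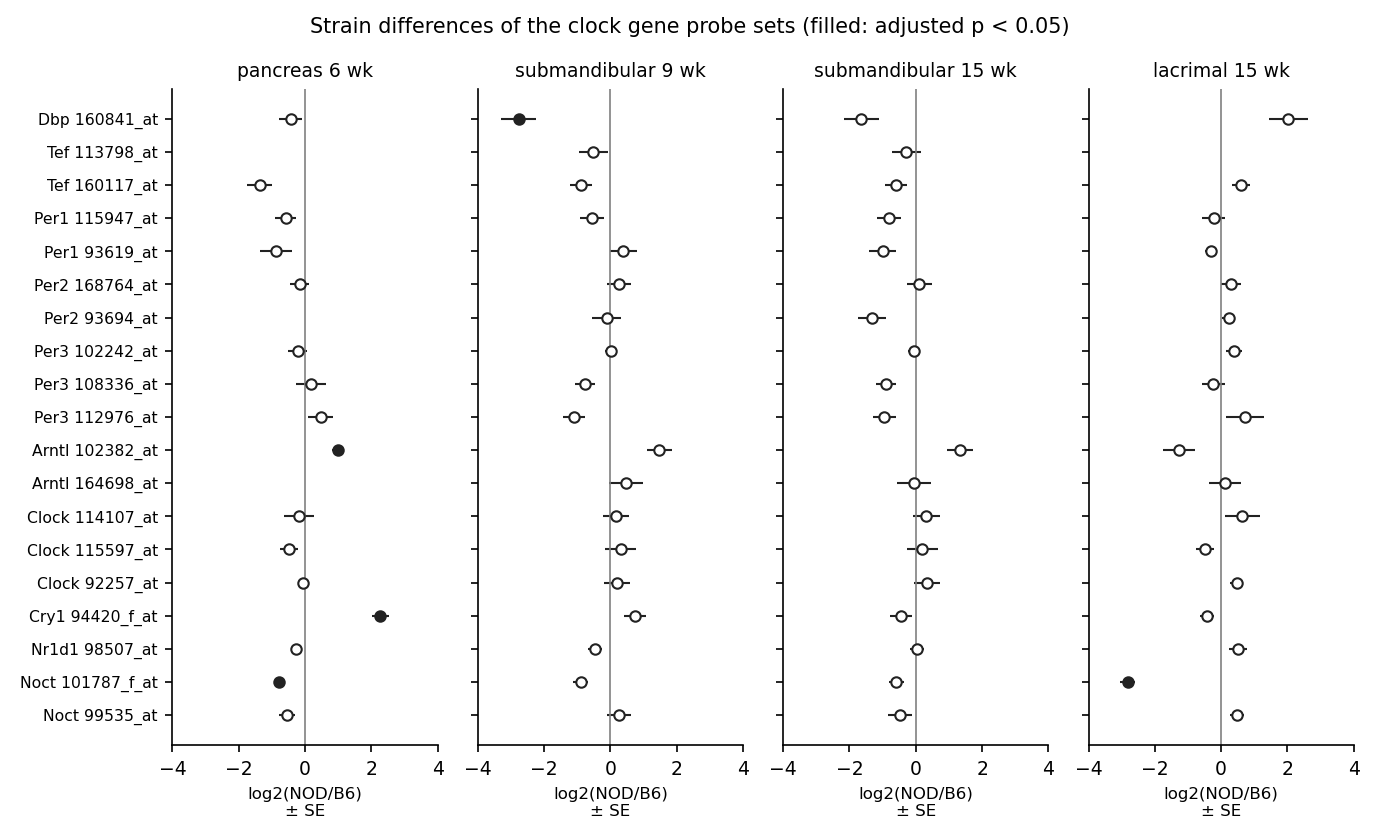
Strain differences of the 19 member probe sets tested in at least 1 strain comparison, as log2(NOD-scid / B6-scid) of scaled signal + 32 on the horizontal axis, with bars for the standard error and 1 panel for each of the 4 strain comparisons. Filled points are called at an adjusted p below 0.05: Cry1, Arntl and Noct 101787_f_at in pancreas, Dbp in submandibular gland of 9 weeks and Noct 101787_f_at in lacrimal gland.

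Arntl, the activator of the loop, was read by 102382_at in every gland. Its signal in pancreas was 208, 309, 250.4, 351 and 252 in B6-scid mice 1 to 5 (274 ± 56.3, SD, n = 5) and 735, 698, 473, 502 and 482 in NOD-scid mice 1 to 5 (578 ± 127, SD, n = 5). Every NOD-scid pancreas was above every B6-scid pancreas. The difference was 0.99 (SE 0.185), a 1.99-fold higher level in NOD-scid, with an adjusted p of 0.0431. That call was lost in 15 of 17 alternative analyses (highest adjusted p 0.354). Among them were 9 of the 10 that left out 1 mouse each (highest adjusted p of these 0.102). The direction was the same in all 17.

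At 9 weeks in submandibular gland Arntl was 180.1, 324, 92.8, 154 and 74.1 in B6-scid mice and 630.2, 414, 507, 560.5 and 301 in NOD-scid mice (165 ± 98.8 and 482 ± 129, SD, n = 5 each). The ranges overlapped by 1 mouse of each strain, B6-scid mouse 2 and NOD-scid mouse 5. The difference of 1.48 (SE 0.39) had an adjusted p of 0.0748 and was not called, although it was called in 4 of 28 alternatives. At 15 weeks Arntl was 122, 112, 119, 102 and 55.5 in B6-scid mice (102 ± 27.1, SD, n = 5) and 719.6, 600.4, 239, 159 and 128 in NOD-scid mice (369 ± 272, SD, n = 5). The strains did not overlap, but the NOD-scid group itself was split between mice 1 and 2, with high Arntl, and mice 3 to 5, with values nearer to the B6-scid range. The difference of 1.33 (SE 0.39, 95% interval 0.52 to 2.14) had an adjusted p of 0.204.

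In lacrimal gland the order of the strains was the other way round. Arntl was 188, 264, 203, 869.8 and 982 in B6-scid mice 1 to 5 (501 ± 391, SD, n = 5) and 185, 131, 119 and 147 in NOD-scid mice 1 to 4 (146 ± 29.1, SD, n = 4). B6-scid mice 4 and 5 stood far above the rest, and the lowest B6-scid value was just above the highest NOD-scid value. The difference of -1.27 (SE 0.48, 95% interval -2.35 to -0.20) had an adjusted p of 0.278. The fitted interaction of strain with gland at 15 weeks was -2.60 (SE 0.67), with an adjusted p of 0.126, and it was called with all 39 samples in 1 fit (adjusted p 0.021).

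A second Arntl probe set, 164698_at, was below 75 in every pancreas. Its strain differences were 0.46 (95% interval -0.61 to 1.53, adjusted p 0.809) in submandibular gland of 9 weeks, of the same sign as the first, -0.05 (-1.12 to 1.02, adjusted p 1) at 15 weeks and 0.12 (-0.94 to 1.18, adjusted p 0.939) in lacrimal gland, where the first had the other sign. The statements on Arntl are those of 102382_at alone. Ordered by mean 102382_at signal, NOD-scid pancreas was highest and B6-scid submandibular gland of 15 weeks lowest, and each neighbouring pair of the 8 groups overlapped.

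Clock, the partner of Arntl, was called between strains in no gland by any of its 3 probe sets. Its brightest probe set, 115597_at, was 634 to 1181 in B6-scid and 334 to 798 in NOD-scid pancreas, with overlapping ranges, and the strain difference was -0.48 (95% interval -1.07 to 0.11, adjusted p 0.604). In submandibular and lacrimal gland its strain differences were 0.30, 0.20 and -0.48 at adjusted p-values of 0.875, 1 and 0.46. The 95% intervals of these 3 differences were -0.68 to 1.29, -0.79 to 1.18 and -1.08 to 0.11.

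Dbp, an output gene with a steep daily rhythm in many tissues, was read by a single probe set, 160841_at. In the submandibular gland at 9 weeks its signal was 392, 444, 889, 1209.6 and 1345 in B6-scid mice 1 to 5 and 24.8, 112, 72.5, 117 and 138 in NOD-scid mice 1 to 5 (856 ± 433 and 92.9 ± 44.8, SD, n = 5 each). No mouse of one strain reached the range of the other. The difference was -2.77 (SE 0.52), 6.81-fold lower in NOD-scid, with an adjusted p of 0.00864. It stayed called in 27 of 28 alternatives (highest adjusted p with 1 mouse left out, 0.0285), so also without the sample high in acinar genes. Without the 9-week samples numbered 4 and 5 it was -2.59 with an adjusted p of 0.0931, and with the Actb ratio as a covariate -2.67 with an adjusted p of 0.00685.

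At 15 weeks Dbp was 916, 627, 1225, 1322 and 855 in B6-scid submandibular glands (989 ± 283, SD, n = 5). It was 42.9, 130.4, 652, 504 and 695 in NOD-scid glands (405 ± 300.4, SD, n = 5). The same NOD-scid mice that had high Arntl, numbers 1 and 2, had Dbp at the 9-week NOD-scid level, while mice 3 to 5 came within or close to the B6-scid range. The strain difference was -1.64 (SE 0.52, 95% interval -2.73 to -0.54) with an adjusted p of 0.304. Whether the strain difference itself changed with age was tested by the interaction, which was 1.13 with a 95% interval of -0.42 to 2.68 (adjusted p 0.999).

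In lacrimal gland the NOD-scid values were the higher ones. Dbp was 128, 139.6, 14.4, 18.1 and 12.6 in B6-scid mice 1 to 5 (62.6 ± 65.3, SD, n = 5) and 298, 372, 85.9 and 609.8 in NOD-scid mice 1 to 4 (341 ± 216, SD, n = 4). The ranges overlapped through NOD-scid mouse 3. The difference was 2.03 (SE 0.58, 95% interval 0.73 to 3.32), 4.07-fold, with an adjusted p of 0.152, and it was called only with all 39 samples in 1 fit (adjusted p 0.0434). Without the B6-scid samples high in Bpifa2 the difference was 2.16 with an adjusted p of 0.231.

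Pancreas held little Dbp and showed no difference that could be told from the spread. The signal was 214, 140.4, 37.7, 254 and 92.2 in B6-scid mice (148 ± 87.9, SD, n = 5) and 88.9, 117, 62.8, 85.6 and 84.8 in NOD-scid mice (87.9 ± 19.5, SD, n = 5), with the whole NOD-scid range inside the B6-scid range. The difference was -0.43 (SE 0.34, 95% interval -1.18 to 0.32, adjusted p 0.743). Over the 8 groups, mean Dbp was highest in B6-scid submandibular gland of 15 weeks and lowest in B6-scid lacrimal gland, and each neighbouring pair of groups in that order overlapped.

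**Figure D2:**
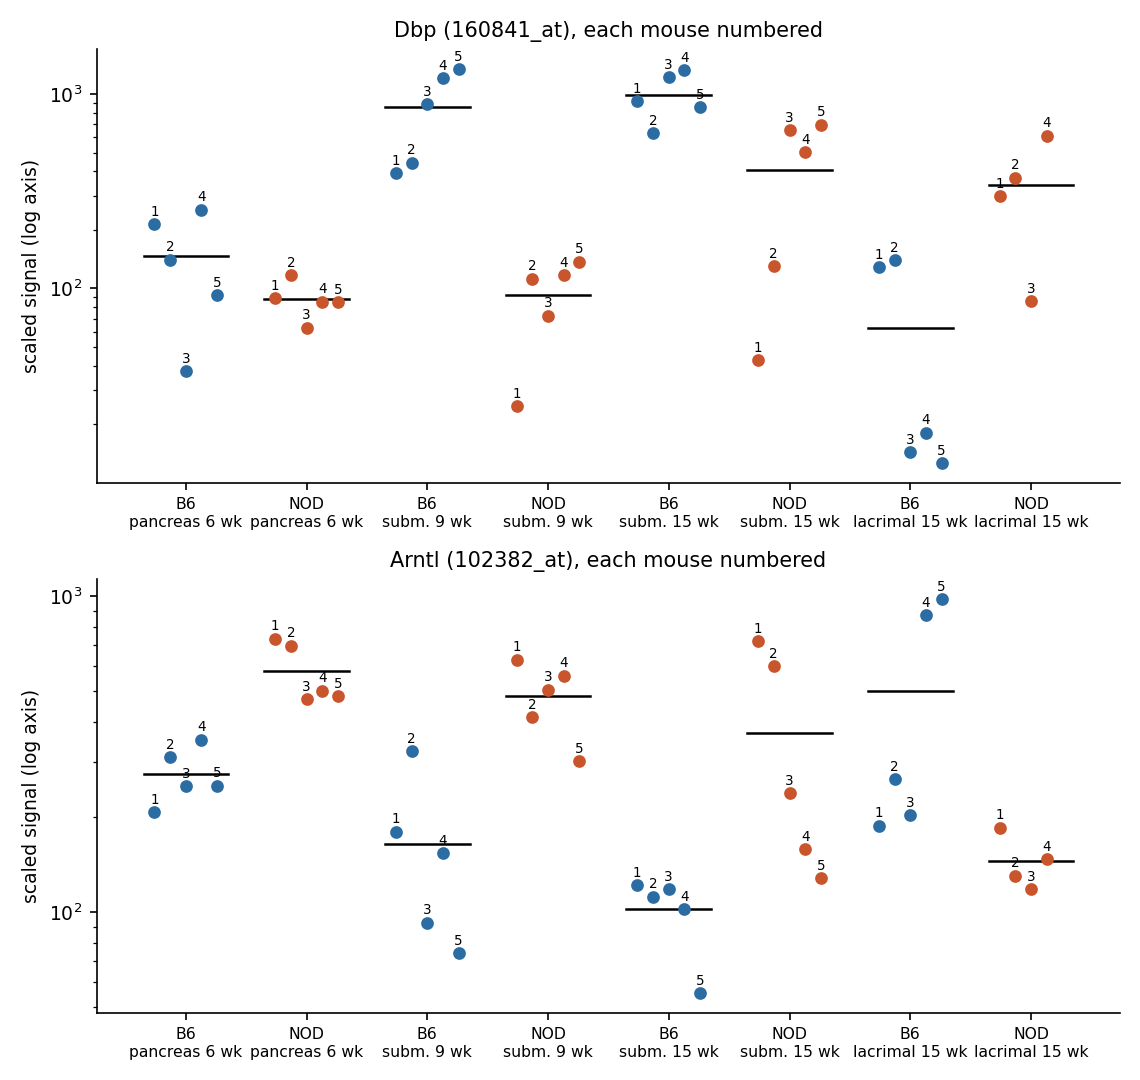
Scaled signal of Dbp (160841_at) and Arntl (102382_at) on a logarithmic axis for each of the 39 samples by group, each mouse marked by its number, with B6-scid in blue, NOD-scid in orange and a black line at the group's arithmetic mean. In submandibular gland of 15 weeks NOD-scid mice 1 and 2 have Dbp of 42.9 and 130.4 with Arntl of 719.6 and 600.4, and in lacrimal gland B6-scid mice 4 and 5 have Dbp of 18.1 and 12.6 with Arntl of 869.8 and 982.

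Between the glands of 15 weeks, 5 of 19 member probe sets were called in B6-scid (lacrimal against submandibular), against 11.4% of all tested, and 4 of 19 in NOD-scid, against 15.2% of all. In B6-scid, Dbp fell by 3.67 on the log2 scale (SE 0.60, 12.7-fold lower in lacrimal gland, adjusted p 0.000431) and Arntl rose by 1.69 (SE 0.46, 3.24-fold, adjusted p 0.0211). In NOD-scid, the lacrimal minus submandibular difference was 0.00 for Dbp (-0.0035, 95% interval -1.34 to 1.33, adjusted p 0.998) and -0.91 for Arntl (95% interval -1.93 to 0.11, adjusted p 0.236). The Arntl call in B6-scid was lost without submandibular mouse 5 (adjusted p 0.0526), lacrimal mouse 4 (0.0633) or lacrimal mouse 5 (0.0617), and the Dbp call in none of 27 alternatives. Without the samples high in Bpifa2, Dbp stood at -3.80 (adjusted p 0.00171) and Arntl at 2.16 (adjusted p 0.012). The interaction of strain with gland called 1 of 19 member probe sets, Noct 101787_f_at, against 0.328% of all tested. For Dbp it was 3.66 (95% interval 1.83 to 5.50, adjusted p 0.0869), called only with all 39 samples in 1 fit (adjusted p 0.0141).

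The ranges of the glands did not overlap for 5 of 19 member probe sets in B6-scid (10.2% of all tested). Those were Dbp, Per2 and Nr1d1, lower in lacrimal gland, and Arntl and Noct 101787_f_at, higher there. In NOD-scid it was 3 of 19 (16.7% of all tested), with Tef and Noct 99535_at higher and Nr1d1 lower in lacrimal gland. The NOD-scid share, 3 of 19, is close to that of all probe sets.

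Dbp and Arntl lay on opposite sides of their gland means in most mice. This was so in 18 of 20 submandibular samples, in 7 of 10 pancreata and in 6 of 9 lacrimal samples, where a side is taken from the mean log2 signal over both strains. Part of that count comes from the strain differences already given, so the deviations from each group's own mean were correlated as well. In submandibular gland Pearson's r of Dbp with Arntl within groups was -0.81 and Spearman's rho -0.79 (20 samples, permutation p 0.00212 and 0.00189, two-sided). With 27 pairs tested, 9 members in 3 glands, the adjusted p was 0.0572 for r and 0.051 for rho, and none of the 27 pairs passed 0.05 after adjustment. Without the 2 samples farthest from the median of Dbp, r was -0.73.

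**Figure D3:**
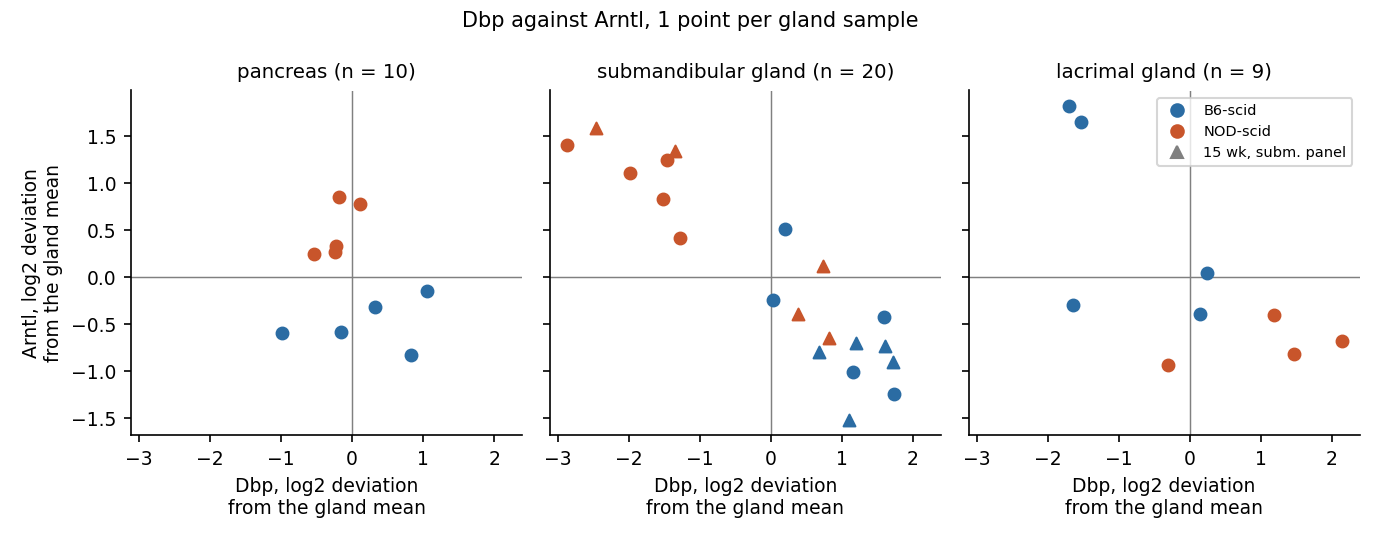
Log2 deviation from the gland mean of Dbp (horizontal axis) against that of Arntl (vertical axis) in pancreas (n = 10), submandibular gland (n = 20, triangles for 15 weeks) and lacrimal gland (n = 9), blue for B6-scid and orange for NOD-scid. Points in the upper left or lower right have the genes on opposite sides of the mean, which holds for 7 of 10, 18 of 20 and 6 of 9 samples.

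Among the other pairs in submandibular gland, Dbp went with Per3 (r 0.64, rho 0.64, permutation p 0.0219 and 0.00915, adjusted 0.264 and 0.124) and with Per1 (r 0.58, rho 0.59, permutation p 0.0359 and 0.0303, adjusted 0.264 and 0.273). In lacrimal gland the pair with the smallest p was Dbp with Per1 (9 samples, r 0.79, rho 0.67, permutation p 0.0418 and 0.1, adjusted 0.264 and 0.393). Dbp with Arntl there had r of -0.39 and rho of -0.38 (permutation p 0.34 and 0.37, adjusted 0.612 and 0.652). In pancreas the sign for Arntl was the other one, r 0.33 and rho 0.30 (10 samples, permutation p 0.392 and 0.436, adjusted 0.646 and 0.693). None of these passed the adjustment.

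In 2 groups, chosen after their values were seen, the mice fell apart in several of these genes at once. In NOD-scid submandibular gland of 15 weeks, mice 1 and 2 deviated from the group mean by -2.08 and -0.97 for Dbp and by 1.19 and 0.94 for Arntl, on the log2 scale. Mice 3, 4 and 5 deviated by 1.11, 0.75 and 1.19 for Dbp and by -0.29, -0.79 and -1.04 for Arntl. Mouse 5 also had the highest Per1 (1.53 above the mean), Per3 (1.07), Tef (1.02) and Usp2 92820_at (1.13) of its group. Nr1d1 was -0.05 and 0.14 in mice 1 and 2 and between -0.20 and 0.19 in mice 3 to 5. Per1 thus set mouse 5 apart from the rest of its group, and Dbp set mice 1 and 2 apart. The Arntl deviations are those of 102382_at. The second Arntl probe set, 164698_at, had the other order, at 51.01 and 90.9 in mice 1 and 2. It was 218, 193 and 175 in mice 3, 4 and 5.

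In B6-scid lacrimal gland, mice 4 and 5 deviated by 1.08 and 1.25 for Arntl and by -0.64 and -0.80 for Dbp. Of the 9 genes followed mouse by mouse, the same mice were also low in Nr1d2 (-0.64 and -0.92), Bhlhe40 (-0.53 and -0.48) and Usp2 92820_at (-0.55 and -1.30), and mouse 5 was low in Per3 (-2.07). Nr1d1 (-0.14 and -0.04) and Tef (-0.44 and -0.09) did not set them apart, and mouse 2 was the lowest in Nr1d1 (-0.64). Per1 was -0.15 and -0.27 in mice 4 and 5. Per2 168764_at, not among the genes followed, did not set them apart, with signals of 835 and 843. It was 902, 447 and 840 in mice 1, 2 and 3. Mice 1 and 2 were high in Dbp (1.04 and 1.14) and low in Arntl (-0.95 and -0.52). Mouse 3 had low Dbp (-0.75) together with low Arntl (-0.86), so the pair did not move oppositely in every mouse. The mice high in Bpifa2, 2 and 3, were on different sides for Dbp. The high Arntl of mice 4 and 5 is that of 102382_at alone. By 164698_at Arntl was lowest in them, at 198 and 208, against 446, 363 and 283 in mice 1, 2 and 3.

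**Figure D4:**
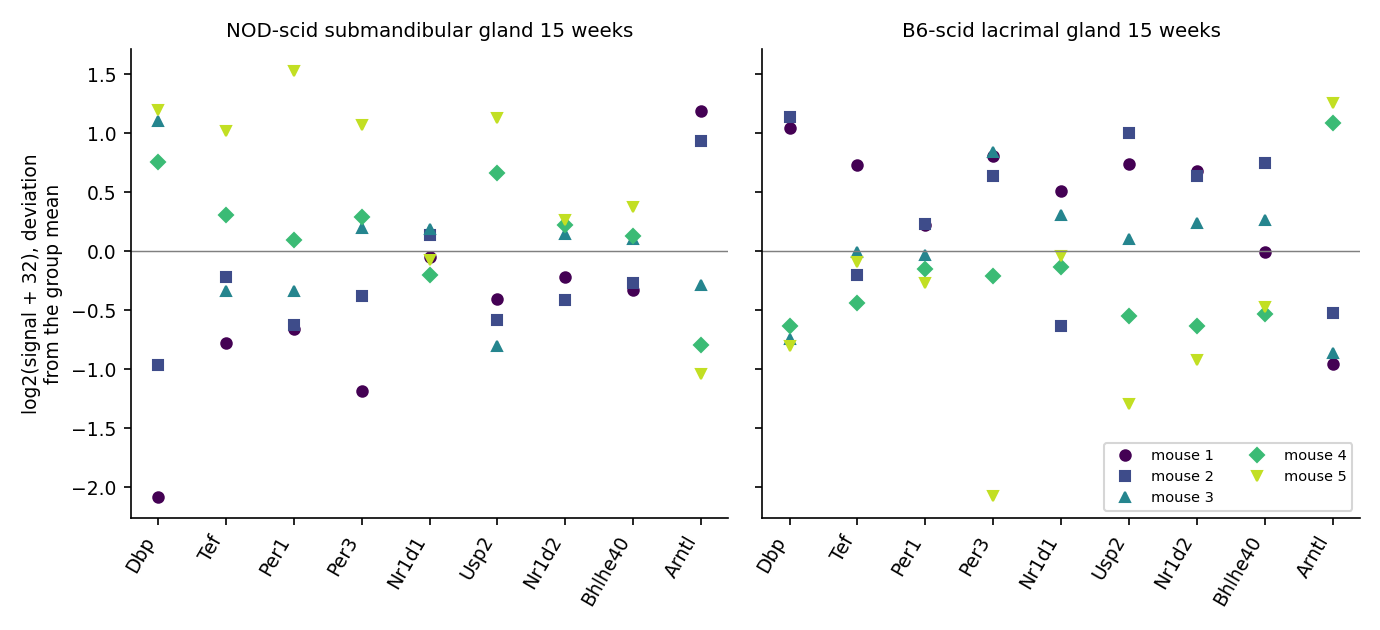
Deviation from the group mean, in log2 of (scaled signal + 32), of Dbp, Tef, Per1, Per3, Nr1d1, Usp2, Nr1d2, Bhlhe40 and Arntl for each mouse of NOD-scid submandibular gland of 15 weeks and of B6-scid lacrimal gland of 15 weeks (n = 5 each). Arntl, by 102382_at, is at 1.19 and 0.94 in NOD-scid mice 1 and 2 and at 1.08 and 1.25 in B6-scid mice 4 and 5. Dbp is below the mean in those 4 mice.

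The Per genes encode repressors of the loop. Per3, read best by 112976_at, was 1251, 1150.0, 1224, 1692 and 1645 in B6-scid and 696, 283, 793, 772 and 774 in NOD-scid submandibular glands of 9 weeks. All NOD-scid values were below all B6-scid values, with a difference of -1.10 and an adjusted p of 0.163. At 15 weeks the B6-scid values were 1538 to 2474 and the NOD-scid values 414, 745, 1129.6, 1207 and 2092 in mice 1 to 5, with NOD-scid mouse 5 within the B6-scid range (difference -0.95, adjusted p 0.438). Another Per3 probe set, 108336_at, did not overlap between strains at 15 weeks, at 519.6 to 1182 in B6-scid and 346 to 471 in NOD-scid (difference -0.91, adjusted p 0.329). In lacrimal gland 112976_at was 1839.7, 1632, 1889.9, 893 and 223 in B6-scid mice 1 to 5, low in the same mice 4 and 5 that were high in Arntl, and 1376 to 2389.6 in NOD-scid mice. In pancreas it was below 200 in all mice but NOD-scid mouse 1, at 686.

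Per2 was read by a dim and a bright probe set that differed. The dim one, 93694_at, was 268, 392, 513, 375 and 239.7 in B6-scid submandibular glands of 15 weeks (358 ± 109, SD, n = 5) and 69.1, 81.8, 107, 203 and 178 in NOD-scid glands (128 ± 59.6, SD, n = 5). The strains did not overlap, and the difference of -1.32 (SE 0.43) had an adjusted p of 0.327. Between glands it fell in B6-scid (-0.76, adjusted p 0.0489) and rose in NOD-scid (0.79, adjusted p 0.0419), calls that were lost in 19 and 12 of 27 alternatives and both without the samples high in Bpifa2 (adjusted p 0.0882 and 0.0506). The bright probe set, 168764_at, lay between 232 and 1305 over all groups and was called in no comparison.

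Per1 (93619_at) spread widely within groups. It was 295, 304, 378, 520.3 and 1465 in NOD-scid submandibular glands of 15 weeks and 1461, 1054, 962, 985 and 693 in B6-scid glands, so the ranges overlapped through NOD-scid mouse 5 (difference -1.0, adjusted p 0.59). At 9 weeks it was 699, 357, 607, 1989 and 1486 in B6-scid and 891 to 1448 in NOD-scid glands. In pancreas B6-scid mice 1 and 2 were at 115 and 155 and mice 3, 4 and 5 at 685, 530.4 and 669, while NOD-scid mice were at 118 to 337. The split of B6-scid pancreas was not mirrored in Dbp, which was 214 and 140.4 in mice 1 and 2 and 37.7, 254 and 92.2 in mice 3, 4 and 5. Neither Per1 probe set was called in any comparison.

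Cry1, the other repressor, gave the steepest member difference of the pancreas. Its probe set 94420_f_at was 182, 269, 214, 224 and 89.0 in B6-scid mice 1 to 5 (196 ± 67.3, SD, n = 5). In NOD-scid mice 1 to 5 it was 777, 1379, 1186, 942 and 924 (1042 ± 239, SD, n = 5). Every NOD-scid value was above every B6-scid value, and the difference was 2.27 (SE 0.251, 4.83-fold, adjusted p 0.00171), kept in all 17 alternatives run. The suffix _f marks a probe set whose probes can match several related transcripts, and the other Cry1 probe sets, both of the _r type, were too dim to test, so no second probe set bears on this difference.

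In submandibular gland Cry1 showed a change with age in B6-scid. The signal was 203, 98.7, 238, 487 and 549 at 9 weeks and 415, 1016, 699, 962 and 822 at 15 weeks, with overlap through mouse 1 of 15 weeks, and it rose by 1.37 (SE 0.33, 2.59-fold, adjusted p 0.045). It was the 1 member probe set called of 19 for age in B6-scid, against 1.22% of all tested, and the call was lost in 19 of 28 alternatives (highest adjusted p with 1 mouse left out, 0.117). In NOD-scid the values were 339.9 to 584 at 9 weeks and 410.5 to 811 at 15 weeks, and none of 19 member probe sets was called for age in limma, against 0.977% of all, with 2 of 19 at an unadjusted p under 0.05. The strain by age interaction called none of 19 (0% of all tested in limma), with 2 of 19 members and 4.994% of all probe sets at an unadjusted p under 0.05. By ranges, 1 of 19 did not overlap between ages in B6-scid (4.04% of all tested), Per3 102242_at, higher at 15 weeks, and 0 of 19 in NOD-scid (4.06% of all).

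The median size of the age difference over members was 0.314 in B6-scid and 0.257 in NOD-scid, against 0.334 and 0.333 over all probe sets. For Dbp the difference from 9 to 15 weeks was 0.31 (adjusted p 0.841) in B6-scid and 1.44 (SE 0.52, adjusted p 0.203) in NOD-scid. The latter moved with NOD-scid mice 3 to 5 of 15 weeks, as given above. For Arntl the differences were -0.45 (adjusted p 0.652) and -0.60 (adjusted p 0.514).

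Nr1d1, the repressor of Arntl, was called between strains in no gland. Its strain differences were opposite in sign to those of Arntl 102382_at in 3 of the 4 comparisons, as was its gland difference in B6-scid. In NOD-scid the gland differences of both genes were negative. After removal of each group's mean, Nr1d1 had an r of -0.0002 with Arntl over 39 samples. Its signal (98507_at) was 1065 to 1212 in B6-scid and 758 to 1169 in NOD-scid pancreas, where Arntl was called higher in NOD-scid, with a difference of -0.27 (adjusted p 0.573). At 9 weeks submandibular gland had 1008, 1850.4, 1668, 1902 and 1411 in B6-scid and 827, 1164, 920.1, 1441 and 1248 in NOD-scid mice, with overlap (-0.47, 95% interval -0.90 to -0.04, adjusted p 0.382). At 15 weeks submandibular gland had 1706, 1070.1, 1184, 916 and 963 in B6-scid and 1135, 1297, 1342, 1017 and 1113 in NOD-scid mice, whose numbers 1 and 2 did not stand apart (0.04, adjusted p 1). In lacrimal gland it was 687, 294, 593, 428 and 461 in B6-scid and 641, 592, 597 and 989.6 in NOD-scid mice (0.51, 95% interval -0.07 to 1.09, adjusted p 0.42). Nr1d1 was lower in lacrimal than in submandibular gland in both strains, by -1.21 (SE 0.22, 2.31-fold, adjusted p 0.000952) in B6-scid, kept in all 27 alternatives run, and by -0.74 (adjusted p 0.0337) in NOD-scid, lost in 8 of 27.

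Tef, a PAR bZIP factor like Dbp, did not follow Dbp between glands. Its probe set 160117_at was 3801, 1975, 2261, 1668 and 2128 in B6-scid lacrimal glands and 2394, 4129, 3995 and 3634 in NOD-scid ones (2367 ± 832, n = 5, and 3538 ± 791, n = 4, SD). In submandibular gland of 15 weeks it was 1493 to 1908 in B6-scid and 615, 922, 846, 1337 and 2213 in NOD-scid mice 1 to 5. Every NOD-scid lacrimal value was above every NOD-scid submandibular value, and Tef rose by 1.66 (SE 0.30, 3.16-fold, adjusted p 0.000746), kept in all 27 alternatives run. In pancreas Tef was 488, 1118, 705, 651 and 1088 in B6-scid and 186, 262, 169, 796 and 237 in NOD-scid mice, with overlap only through NOD-scid mouse 4. The difference of -1.37 (SE 0.38) had an adjusted p of 0.179. Its second probe set, 113798_at, was near the floor, with a mean of 61.99 to 122 over the groups.

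Noct was read by 3 probe sets that disagreed. Its brightest, 101787_f_at, was 7061, 12076, 6845, 7614 and 8043 in B6-scid lacrimal glands (8328 ± 2147, SD, n = 5) and 1005, 1447, 917 and 1191 in NOD-scid ones (1140.1 ± 235, SD, n = 4). The groups were far apart, and the difference of -2.82 (SE 0.217, 7.08-fold lower in NOD-scid, adjusted p 0.000284) was kept in all 17 alternatives run. Without the B6-scid samples high in Bpifa2 it was -2.72 (adjusted p 0.00147). In the same glands 99535_at was 1193, 1628, 1288, 1345 and 1134 in B6-scid (1317 ± 192, SD, n = 5) and 1319, 2055, 2557 and 1670.0 in NOD-scid mice (1900.4 ± 531, SD, n = 4), a difference of the other sign, 0.49, with an adjusted p of 0.345. The third, 162384_f_at, did not exceed 184 on any array.

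The same probe set was lower in NOD-scid pancreas, at 498 to 643 against 954 to 1141 in B6-scid (-0.78, SE 0.128, 1.71-fold, adjusted p 0.0215). That call was lost in 7 of 17 alternatives, 4 of them with 1 mouse left out (adjusted p up to 0.0601). In submandibular gland of 9 weeks the strains did not overlap, at 2136 to 3946 in B6-scid and 835 to 2121 in NOD-scid mice (-0.89, adjusted p 0.0601), and at 15 weeks they did, at 1748 to 2995 and 1270.1 to 1858 (-0.59, adjusted p 0.507). Between glands 101787_f_at rose by 1.84 in B6-scid lacrimal gland (adjusted p 2.6e-06). The strain by gland interaction was -2.23 (SE 0.28, adjusted p 0.000461), kept in all 27 alternatives run. For 99535_at the gland difference was called in NOD-scid instead (1.12, SE 0.23, adjusted p 0.00219), with a strain by gland interaction of 0.97 (adjusted p 0.246).

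The Noct probe sets of the _f type can match related transcripts, and values of 5 more of that type, annotated to Noct together with Sgip1, Cog6 and Gm10845, are given for that reason. They were lower in NOD-scid in 4, 5, 5 and 5 of 5 in pancreas, submandibular gland of 9 and 15 weeks and lacrimal gland, by at most 1.26 on the log2 scale (range -1.26 to -0.42 in lacrimal gland). Within groups 101787_f_at correlated with them at r of -0.07 to 0.32 and with 99535_at at 0.15 over 39 samples, as a description of probes that share libraries. Which transcript 101787_f_at reads was not tested, so its calls are those of the probe set and are not shown to be those of the Noct transcript.

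**Figure D5:**
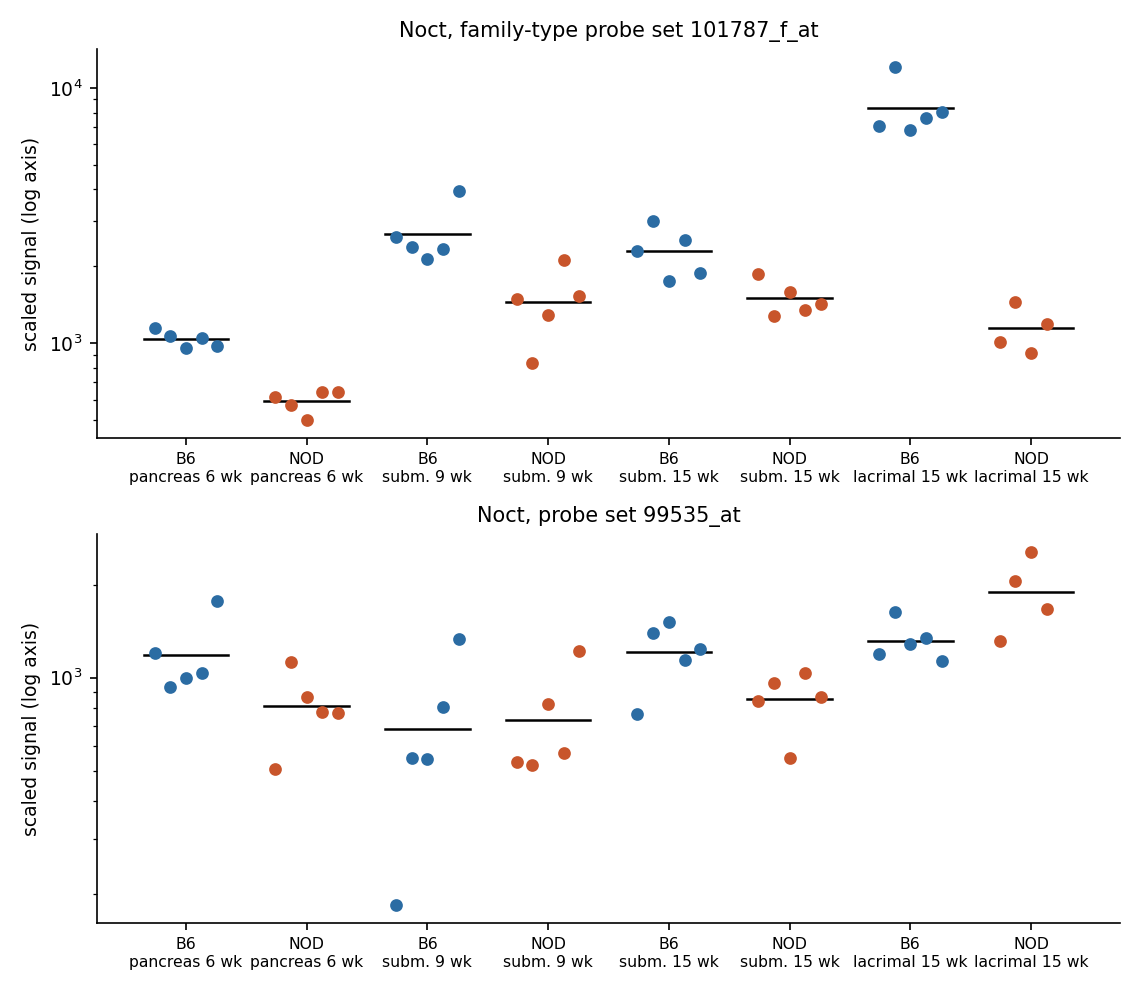
Scaled signal of the Noct probe sets 101787_f_at and 99535_at on a logarithmic axis for each sample by group, blue for B6-scid and orange for NOD-scid. In lacrimal gland 101787_f_at is 6845 to 12076 in B6-scid and 917 to 1447 in NOD-scid, while 99535_at is 1134 to 1628 and 1319 to 2557.

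Of the wider clock machinery, a list of 18 partner genes, 15 had a probe set. Between strains 1 of 36 partner probe sets was called in submandibular gland of 9 weeks, against the 1.12% given above for all, and none of 33, 36 and 35 in pancreas, submandibular gland of 15 weeks and lacrimal gland. The 1 called was Nfil3 (102955_at), the factor that opposes DBP at the D-box. It was 141, 36.0, 137, 106 and 168 in B6-scid and 563, 409, 588, 245 and 366 in NOD-scid glands, without overlap. The difference was 1.67 (SE 0.26, adjusted p 0.00151), of opposite sign to that of Dbp in the same glands and kept in all 28 alternatives run. At 15 weeks it was 0.42 (adjusted p 0.912), and the second Nfil3 probe set, 101805_f_at, differed by 0.53 (adjusted p 0.706) at 9 weeks.

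Nr1d2, the paralog of Nr1d1, differed by -0.99 (adjusted p 0.0841) in pancreas and -0.75 (adjusted p 0.104) in submandibular gland of 15 weeks by 99076_at. By 99076_at it rose with age in submandibular gland of both strains, by 1.17 (adjusted p 0.00559) in B6-scid and 0.82 (adjusted p 0.0446) in NOD-scid, from 607 to 888 at 9 weeks to 1375 to 2013 at 15 weeks in B6-scid. The brighter 107103_at overlapped between the ages, at 2873 to 6470 and 4598 to 5518 in NOD-scid and 3358 to 4219 and 4118 to 10939 in B6-scid. At 9 weeks its mean was higher in NOD-scid (4289 ± 1410, SD, n = 5) than in B6-scid (3842 ± 363, SD, n = 5). For 99076_at the order was the reverse (558 ± 144 and 735 ± 111). Bhlhe40, a further repressor of E-box transcription, differed between strains by -0.76 (adjusted p 0.122) at 9 weeks and -0.88 (adjusted p 0.0899) at 15 weeks and rose with age in B6-scid (0.94, adjusted p 0.0406). Between glands of 15 weeks the partners called in B6-scid, 5 of 36 probe sets, were all lower in lacrimal gland: Nr1d2 (-1.31 and -1.90), Bhlhe40 (-2.56), Bhlhe41 (-1.15) and Csnk1e (-0.96). That share is close to the 11.4% called of all probe sets tested. In NOD-scid, where 15.2% of all were called, Cry2 107068_at rose (1.13, adjusted p 0.000854), and Bhlhe40 (-1.73) and both Csnk1e probe sets (-1.58 and -1.77) fell. Between strains in lacrimal gland, Cry2 107068_at was 1965 to 2388 in NOD-scid and 1219 to 1762 in B6-scid. Cry2 97724_at was 557 to 786 and 225 to 529. Neither overlapped there (7.09% of all tested) and neither was called, and in the other glands both overlapped. Npas2, which can stand in for Clock, and Hlf, the third PAR bZIP factor, were called in no comparison, with strain differences of up to 1.51 (adjusted p 0.469) and -1.04 (adjusted p 0.635).

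Of 14 known clock output genes, 13 had a probe set, and 2 of 23 probe sets were called between strains in submandibular gland of 15 weeks, both lower in NOD-scid, against the 0.594% given above. Usp2, a deubiquitinase with a rhythmic transcript, was 2120.4, 1711, 2041, 1656 and 1470.2 in B6-scid and 596, 695, 584, 1045 and 1305 in NOD-scid mice by 92821_at, without overlap (-1.12, SE 0.24, adjusted p 0.0292). By 92820_at the difference was -1.50 (adjusted p 0.0834). Wee1, a cell cycle kinase under E-box control, was 363, 484, 671, 466 and 512 in B6-scid and 127, 76.1, 83.7, 222 and 64.9 in NOD-scid mice (-1.93, SE 0.44, adjusted p 0.0451). The calls were lost in 10 (Usp2) and 17 (Wee1) of 28 alternatives, with adjusted p-values of up to 0.115 and 0.137 respectively. No output probe set was called between strains in the other glands, of 22, 23 and 22 tested in pancreas, submandibular gland of 9 weeks and lacrimal gland. Between glands 3 of 22 output probe sets were higher and 2 lower in lacrimal gland in each strain. Of all probe sets tested, 11.4% were called between glands in B6-scid and 15.2% in NOD-scid. Insig2 (111948_at), which holds back cholesterol synthesis, rose in lacrimal gland of both strains (2.31 and 2.00) and Tspan4 fell in both (-2.87 and -2.08).

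Lists of genes that answer glucocorticoids, temperature or handling were read in the same samples, since such transcripts also vary with the hour and the way of sampling. In the strain comparisons no temperature probe set was called (12 to 14 tested). Of the glucocorticoid list 1 was called, Zbtb16 in lacrimal gland (-1.73, adjusted p 0.0495, lost in 14 of 17 alternatives), of 20 to 23 tested. Of the immediate early list 1 was called, Ier2 in submandibular gland of 9 weeks (-0.90, adjusted p 0.0226, lost in 6 of 28), of 19 or 20 tested. Of all probe sets, 0.647% were called in pancreas, 1.12% and 0.594% in submandibular gland of 9 and 15 weeks, and 1.19% in lacrimal gland. Fkbp5, a direct glucocorticoid receptor target, differed by -1.01 (adjusted p 0.0738) in lacrimal gland, at 3171 to 6241 in B6-scid and 1880.1 to 2939 in NOD-scid mice without overlap. In submandibular gland its strain differences were -0.45 and -0.47 (adjusted p 0.691 and 0.964).

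With age in submandibular gland at most 1 probe set of each of these 3 lists was called in each direction: Sgk1 (1.22) and Hspa1b (0.78) rose, and Angptl4 (-1.05) and Btg2 (-1.03) fell in B6-scid, and Ier2 (0.82) rose in NOD-scid. The share called for age of all probe sets tested was 1.22% in B6-scid and 0.977% in NOD-scid. Of the output list Alas1 rose in B6-scid (1.05) and Tfrc in NOD-scid (1.56). Between glands, the glucocorticoid list had 2 of 23 probe sets higher and 4 lower in lacrimal gland of B6-scid and 3 and 3 in NOD-scid, the temperature list 0 and 1 of 14, then 1 and 0, and the immediate early list 1 and 2 of 21, then 1 and 3. The share of all probe sets called between glands was 11.4% in B6-scid and 15.2% in NOD-scid. Fkbp5 rose in lacrimal gland of both strains (1.41 and 0.87) and Sgk1 fell in both (-1.96 and -1.91), as did Klf9 (-0.71 and -0.75) and Nr4a1 (-1.31 and -1.21). In 1 strain alone were called Mt2 (-0.97), Jun (-1.59), Cirbp (-0.62), Btg2 (0.67), Zbtb16 (1.24), Usp2 92821_at (-1.20) and Tfrc (0.63) in B6-scid. In NOD-scid alone these were Ddit4 (1.29), Hsph1 (1.32), Egr2 (1.28), Ier3 (-0.92), Zfp36 (-0.94), Klf10 (-0.66) and Alas1 (1.09). The 2 Dusp1 probe sets had opposite signs in NOD-scid (1.68 and -1.73), and the second also fell in B6-scid (-1.45). None of the 5 lists had a called probe set in the interactions of strain with age or with gland, so a difference between strains in these changes was not shown.

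Likeness to Dbp and to Arntl was taken over all 39 samples, after removal of each group's mean. Among 21580 probe sets compared with Dbp, the highest r were those of Ttc38 (0.62), 4931406C07Rik (0.62), Mrps26 (0.59), Rgmb (0.59) and Nlrp10 (0.59), and the lowest those of Chordc1 (-0.59), Dusp6 (-0.59), Rabac1 (-0.59), Coq8b (-0.58) and Arntl (-0.57). Per3 112976_at had an r of 0.53 with Dbp, with 23 probe sets above it. For Arntl the highest r were those of Insig2 111948_at (0.69), Pja1 (0.66), Acbd3 (0.64), Rab33b (0.62) and Tmod3 (0.61). The lowest were those of Rgcc (-0.67), Prkag2 (-0.65), Wnt10b (-0.61), Usp2 92820_at (-0.61) and Sgcb (-0.60). So Arntl was the fifth lowest of all for Dbp, and the clock outputs Insig2 and Usp2 were at the ends for Arntl. The other members, each by its brightest probe set, lay between these ends. With Dbp, r was 0.30 (Tef), 0.26 (Per1), 0.17 (Nr1d1), 0.16 (Noct), 0.13 (Cry1), -0.12 (Clock) and -0.38 (Per2). With Arntl, r was 0.23 (Clock), 0.21 (Per2), 0.03 (Noct), -0.0002 (Nr1d1), -0.16 (Cry1), -0.35 (Tef), -0.36 (Per1) and -0.54 (Per3). These values describe arrays that share libraries and scaling, and carry no test. The Per2 values of r are those of 168764_at alone, and none is given for the dim 93694_at. In B6-scid submandibular gland of 9 weeks, Dbp was lowest in mice 1 and 2. There 168764_at was highest in these mice, at 1124 and 911, and 93694_at lowest, at 85.2 and 20.03. In NOD-scid lacrimal gland 93694_at was 199 in mouse 4, highest in Dbp, and 241 in mouse 3, lowest in Dbp.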

How the data were processed

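The authors deposited MAS5 signals (MAS5 per the submitters' processing notes, with no version), which are linear intensity values per probe set, for glands of 39 samples on Affymetrix MG-U74 version 2 arrays A, B and C, with trimmed means of 2500 to 2502 per array. Per the labels, glands were homogenised in Trizol, and 10 microg of RNA served for labelled cRNA. Here each array was scaled to a 2% trimmed mean of 500. The 198 control probe sets were left out, and probe sets with a signal of at least 100 on at least 4 arrays of a fit were kept. Differences of log2(signal + 32) were tested with limma 3.58.1 (R 4.3.3), separately for pancreas, submandibular gland, lacrimal gland and the samples of 15 weeks, with Benjamini-Hochberg adjustment over the 3 designs and a threshold of 0.05. Of the 36701 probe sets 29131 had 1 symbol in the platform annotation, 724 several and 6846 none.

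The members, the lists and the alternatives were chosen with earlier results of these data known. Every member gene is described. The strain differences of some probe sets, such as Per1 115947_at and Clock 92257_at and 114107_at, are only in the plot of strain differences. Of the lists, genes called in at least 1 comparison are named, and always Nr1d2, Cry2, Npas2, Bhlhe40, Nfil3, Hlf, Usp2 and Fkbp5. The 5 highest and 5 lowest correlations name the genes most like Dbp or Arntl. Dbp was correlated with 9 members within groups, with 100000 shuffles within groups (Python 3.11.15, scipy 1.17.1). The limma and correlation steps were tested on simulated data. The number of arrays limits the precision. Alternatives were an offset of 1, no filter, quantile normalization, 1 fit of 39 samples, a replicate block, the Actb ratio as covariate and each mouse left out. Correlations of deviations between samples of the same number were -0.07 to 0.11, so the numbers were not taken to pair mice. After seeing the data, 4 alternatives were added: no 9-week samples numbered 4 and 5 (a choice of an earlier analysis), no lacrimal samples high in Bpifa2, 1 prior spread over the 3 designs, and the 99535_at probe set of Noct in the correlations.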

Additional observations from a re-analysis of the deposited data

Results flagged for a closer look

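In 15 of 150 groups of 4 or 5 samples the highest or lowest mouse lay farther from the others than Dixon's critical value allows. Its rate of about 1 in 20 groups holds for independent groups of normally distributed values. The groups here share mice and genes, and the signals need not be normal, so the 15 cannot be set against that rate. For Tef 160117_at the flagged mice were NOD-scid pancreas mouse 4 (796) and B6-scid lacrimal mouse 1 (3801). For the dim Tef 113798_at they were B6-scid submandibular mouse 1 of 9 weeks (341), NOD-scid submandibular mouse 5 of 9 weeks (129) and NOD-scid lacrimal mouse 3 (140.4). For Per1 93619_at they were NOD-scid submandibular mouse 5 of 15 weeks (1465) and NOD-scid lacrimal mouse 4 (578), which was also high in Nr1d1 (989.6). The Per2 168764_at signal was low in B6-scid lacrimal mouse 2 (447). Per3 102242_at was high in B6-scid submandibular mouse 1 of 15 weeks (822), and Per3 112976_at was high in NOD-scid pancreas mouse 1 (686) and low in NOD-scid submandibular mouse 2 of 9 weeks (283). Clock 92257_at was low in B6-scid submandibular mouse 5 of 9 weeks (52.0). Noct 101787_f_at was high in B6-scid submandibular mouse 5 of 9 weeks (3946) and in B6-scid lacrimal mouse 2 (12076), 1 of the samples high in Bpifa2.

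The strain difference of Noct 101787_f_at differed between submandibular and lacrimal gland at 15 weeks by the interaction in limma, -2.23 with an adjusted p of 0.000461.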

How the results depend on the processing

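No result among those followed changed sign under an alternative. Member probe sets called between strains in pancreas went from 3 to 1 with the replicate block, with the Actb covariate and with 1 prior spread over the designs, and to 1 to 3 with a mouse left out. In submandibular gland of 9 weeks the 1 call became 3 with 1 fit of 39 samples, 2 with the block and 0 without the 9-week samples numbered 4 and 5 (1 to 2 with a mouse left out). At 15 weeks it stayed at 0 with any mouse left out. For age in B6-scid the 1 call became 0 with the offset of 1, quantile normalization, the block or 1 prior spread, 2 with 1 fit of 39 samples or the Actb covariate, and 3 without those 9-week samples (0 to 1 with a mouse left out). For age in NOD-scid and strain by age it was 0 to 0 with a mouse left out. In lacrimal gland the 1 call became 2 with 1 fit of 39 samples (1 to 1 with a mouse left out). Between glands the counts were 3 to 6 in B6-scid and 2 to 5 in NOD-scid with a mouse left out, and 2 in NOD-scid with the Actb covariate. Strain by gland went from 1 to 2 with quantile normalization and 3 with 1 fit of 39 samples (1 to 2 with a mouse left out). No within-group correlation passed 0.05 after adjustment in any alternative run.

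Over all probe sets, calls in pancreas went from 186 to 313 with 1 fit of 39 samples, 60 with the block and 63 with the Actb covariate (112 to 161 with a mouse left out). For age in B6-scid 393 became 966 with 1 fit and 632 without those 9-week samples (122 to 428), and for age in NOD-scid 314 became 677 with 1 fit (111 to 350). For strain by age 0 became 0 to 1 with a mouse left out. In lacrimal gland 330 became 678 with 1 fit, 35 with the block and 145 without the samples high in Bpifa2 (148 to 258). For strain by gland 103 became 43 with the block (69 to 115). The cause of these shifts was not tested. With the replicate block, Dbp and Arntl in submandibular gland of 15 weeks had adjusted p-values of 0.065 and 0.0505. Probe sets near the floor, such as both Cry1 _r_at probe sets, are limited by signal over background.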
